A study of Mus musculus with 4 samples.

Results

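The immunity-related GTPases are interferon-inducible proteins that guard mouse cells against microbes living in vacuoles, and 7 genes of the family were followed here: Irgm1, Irgm2, Igtp, Iigp1, Ifi47, Tgtp1 and Tgtp2. They were chosen by gene symbol, 7 of the 31053 genes of the count matrices, with earlier results of these data known. The measurements are droplet single-cell RNA-seq counts (10x Genomics) of unique molecular identifiers (UMIs, 1 per captured transcript) in leukocytes sorted for the surface protein CD45. All mice were wild-type C57BL/6, and cells came from the whole colon of mice under daily restraint for 7 days, a psychological stressor, or of mice given the control treatment, with 2 libraries in each group. No other allele, agent or age is given in the labels, and whether a group's libraries stem from different animals is not stated, so the p-values describe how far these libraries spread, which may be technical.

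As background, the family is strongly induced by interferon gamma, which signals through the receptor chains Ifngr1 and Ifngr2. Irgm1, Irgm2 and Igtp (also called Irgm3) are regulators that sit on the cell's own membranes and hold the other members in an inactive state there. Iigp1 (Irga6), Ifi47 (Irgd) and the near-identical pair Tgtp1 and Tgtp2 (Irgb6) are effectors, which load onto the vacuole around an invading microbe such as Toxoplasma gondii or Chlamydia, together with the guanylate-binding proteins and with help from the ubiquitin-like conjugation system of autophagy (Atg5, Atg7, Atg12, Atg16l1). In the gut, loss of Irgm1 in mice is known to disturb Paneth cells and to worsen colitis.

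Of the 7 genes, all but Iigp1 lie on chromosome 11, and all are protein coding in GENCODE vM21 on GRCm38, the assembly also called mm10. The regulator Irgm1 (ENSMUSG00000046879) spans chr11:48861968-48871683 on the minus strand, next to the effectors Tgtp1 (ENSMUSG00000078922, chr11:48985327-48994172, minus strand), Tgtp2 (ENSMUSG00000078921, chr11:49057194-49064206, minus strand) and Ifi47 (ENSMUSG00000078920, chr11:49076587-49096974, plus strand). Igtp (ENSMUSG00000078853, chr11:58199556-58207591) and Irgm2 (ENSMUSG00000069874, chr11:58199618-58222782) lie further along on the plus strand, and their gene models overlap. In the longest annotated protein-coding transcripts, every 90-base window of the last 500 bases of Tgtp1 is also found in Tgtp2, so UMIs of this pair can be exchanged or lost and the values of both genes are uncertain. Igtp and Irgm2 share 6.67% and 3.05% of such windows over their whole transcripts and 0% in the last 500 bases.

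Promoters of 6 of the 7 genes were found in the RefSeq promoter table (GRCm38.p6, 250 bases before to 50 after the start of each gene), and they are shown because the letters that interferon-activated factors are known to recognise recur in them close to the start of the gene. The search covered the core of the interferon-stimulated response element (GAAA, any 2 bases, GAAA) and the gamma-activated sequence (TTCNNNGAA), on both strands. The first stood in 5 of the 6 promoters and in 3.44% of all 32851 promoters of the table, and the second in 4 of the 6 and in 8.3% of all. The 5 stretches below run 5′ to 3′ on the strand of the gene and end before the RefSeq start, with matches to either motif in capitals. That start lies inside the GENCODE gene, whose outermost transcript begins further upstream, by 263 bases for Irgm1, 1926 for Tgtp1 and 15359 for Irgm2, so these stretches are not upstream of every transcript. A match describes these letters only, and no binding was measured.
Irgm1 (chr11:48871421-48871474, minus strand): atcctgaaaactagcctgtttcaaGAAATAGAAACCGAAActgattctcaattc
Tgtp1 (chr11:48992294-48992353, minus strand): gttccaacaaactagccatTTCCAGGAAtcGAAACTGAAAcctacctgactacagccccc
Tgtp2 (chr11:49064253-49064312, minus strand): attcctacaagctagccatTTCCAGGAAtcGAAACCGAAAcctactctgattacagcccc
Igtp (chr11:58199492-58199551, plus strand): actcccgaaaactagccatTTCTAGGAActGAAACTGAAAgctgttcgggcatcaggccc
Irgm2 (chr11:58214883-58214942, plus strand): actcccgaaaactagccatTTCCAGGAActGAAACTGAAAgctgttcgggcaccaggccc
In Tgtp1, Tgtp2, Igtp and Irgm2 the gamma-activated sequence came first and the response element core followed it, with its first base 77, 70, 34 and 64 bases before the RefSeq start. Irgm1 had 2 overlapping cores (GAAATAGAAA and GAAACCGAAA, 30 and 24 bases before the start) and no gamma-activated sequence. Neither motif was found in the window of Ifi47, which says only that these letters are not in it.

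The 4 libraries held 2941 to 10259 barcodes, none under 500 UMIs, and 11.1 to 26% of barcodes in each exceeded 10% mitochondrial UMIs and were left out. The 20476 kept barcodes had medians of 2174 UMIs in stress 1 and 4547 in stress 2, with both controls between them, and 3 to 19 barcode sequences were shared between any pair of libraries. Cells were assigned to 15 classes from 8 markers each, at least 3 markers of the class and 2 more than of any other, which placed 86.5% of kept barcodes. The sort is labelled CD45+, yet 234 fibroblast-like cells passed the gate in control 1, 9.13% of its kept barcodes, against 5, 8 and 1 in control 2, stress 1 and stress 2. Because no empty droplets were in the matrices, free RNA could not be measured. Levels are UMI counts of the summed class in a library per 1000000 UMIs of that sum (CPM), without correction for transcript length, so they are compared between cells and not between genes.

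The remaining member, Iigp1 (ENSMUSG00000054072), spans chr18:60376027-60392634 on the plus strand of the same build. All 7 genes were detected, with 2335 UMIs of Irgm1, 552 of Irgm2, 3355 of Igtp, 888 of Iigp1, 5333 of Ifi47, 182 of Tgtp1 and 453 of Tgtp2 over the kept barcodes. T cell-like cells supplied the largest class share of the UMIs of 6 genes, from 35.3% for Ifi47 to 53.3% for Tgtp1, and B cell-like cells that of Irgm1, 24.8%. Summed over the 7 genes, monocyte-like cells had 464 ± 183 CPM (SD, n = 4 libraries of both groups), T cell-like cells 287 ± 79.9, cDC2-like cells (conventional dendritic cells of type 2) 234 ± 187 and NK or ILC1-like cells 207 ± 52.9. Lower came macrophage-like cells at 128 ± 53.9, ILC2-like cells at 120 ± 89.6, cDC1-like cells at 96.2 ± 99.6, B cell-like cells at 77.6 ± 35.5 and plasma cell-like cells at 31.4 ± 17.7 CPM. Each class overlapped its neighbours in this order over the 4 libraries, whereas T cell-like cells, with 185 to 367 CPM, lay above B cell-like cells, with 34.7 to 121, in every library.

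The order differed from gene to gene. Irgm1 stood at 149, 47.0, 134 and 114 CPM in monocyte-like cells of control 1, control 2, stress 1 and stress 2, and at 14.0, 14.5, 27.0 and 36.9 in T cell-like cells. Ifi47 was at its highest among the fitted classes in monocyte-like cells, with 304, 94.0, 295 and 248 CPM, and reached 134, 74.5, 140 and 155 CPM in T cell-like cells. For Igtp the monocyte-like cells (99.4, 47.0, 114 and 81.8 CPM) and T cell-like cells (62.8, 67.3, 105 and 102 CPM) overlapped. The effector Iigp1 had another pattern, with 22.0, 6.68, 31.4 and 32.0 CPM in T cell-like cells, and with 0 UMIs in control 2 and 1, 4 and 3 UMIs in control 1, stress 1 and stress 2 in B cell-like cells. Irgm2 ranged from 9.07 to 16.1 CPM in T cell-like and from 0.887 to 2.12 CPM in plasma cell-like cells. Tgtp2 lay between 7.96 and 17.4 CPM in T cell-like cells, and Tgtp1, at 4.16 to 9.35 CPM there, had 0 UMIs in macrophage-like cells of all 4 libraries.

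**Figure D1:**
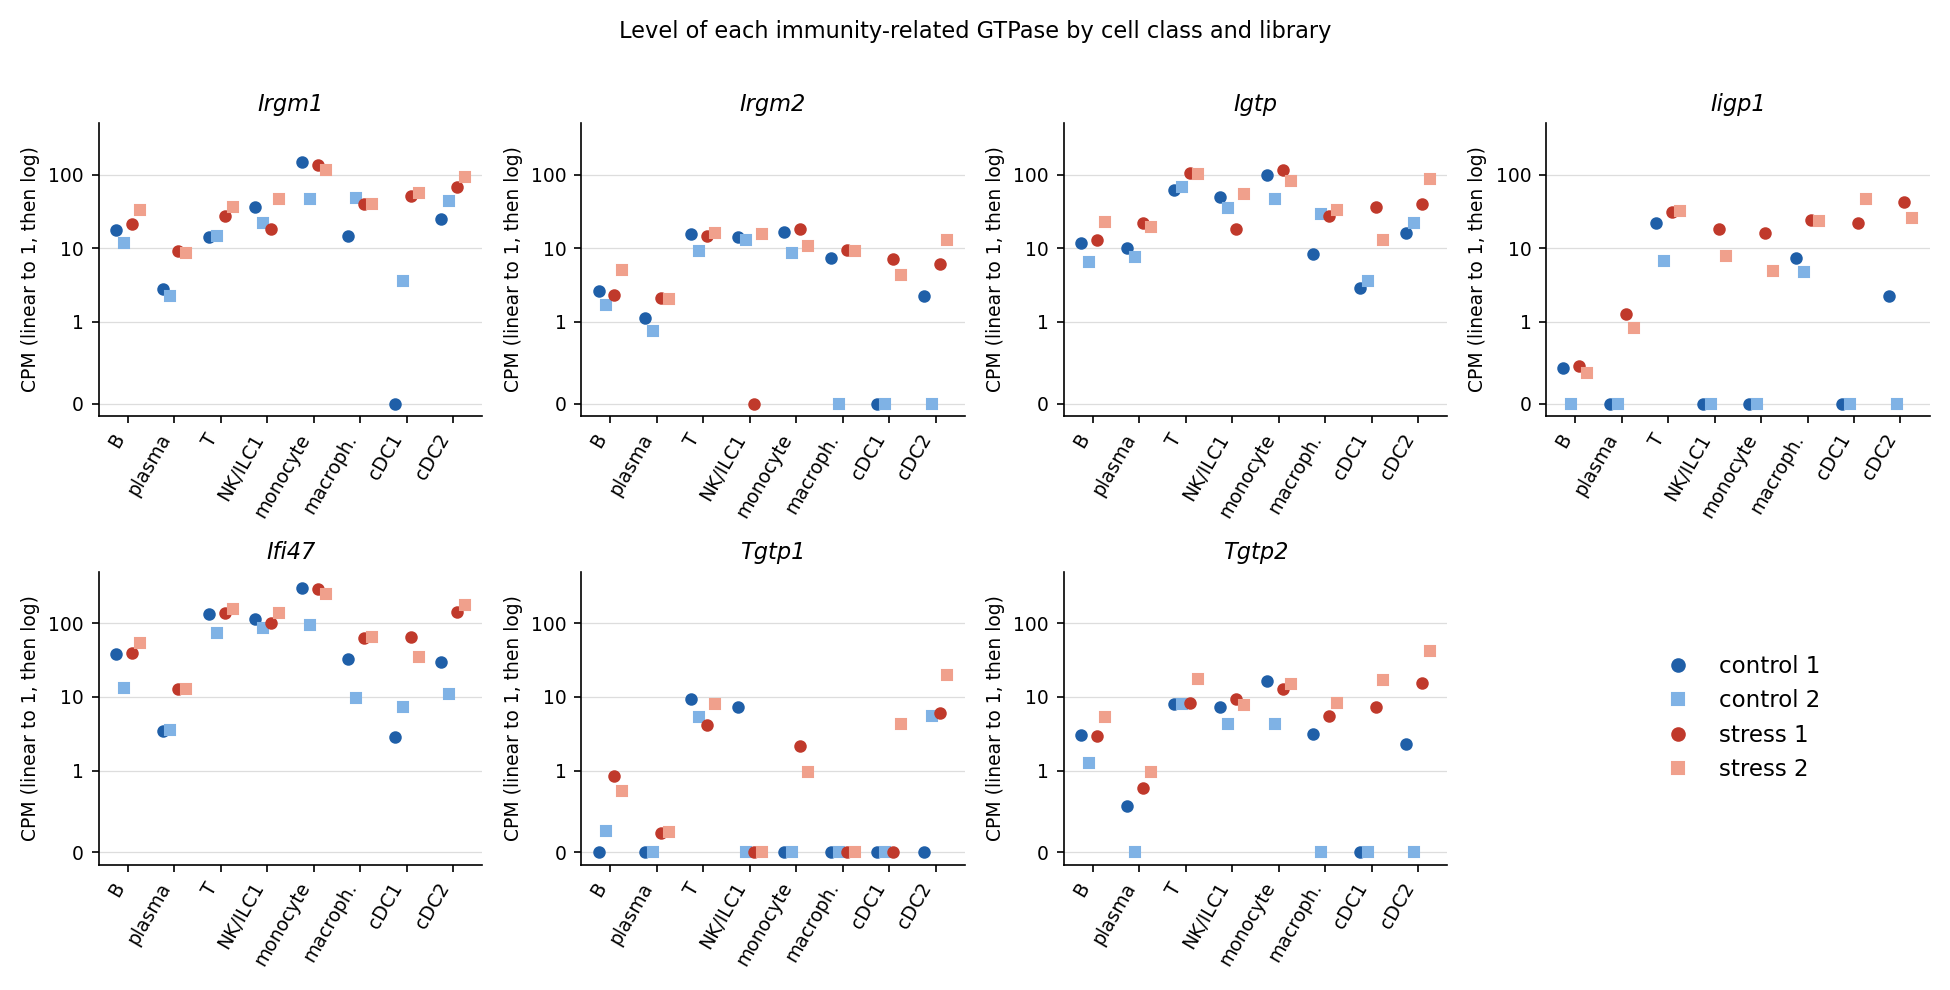
Level of each of the 7 genes (CPM of the class sum, on an axis that is linear from 0 to 1 and logarithmic above) in 8 cell classes, with 1 point per library. Ifi47 and Irgm1 are highest in monocyte-like cells, except for Irgm1 in control 2 (48.1 CPM in macrophage-like against 47.0 in monocyte-like cells). Iigp1 is at 0 in both control libraries of plasma cell-like, NK or ILC1-like, monocyte-like and cDC1-like cells.

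Within T cell-like cells the members differed between the subsets marked by Cd4 or by Cd8a and Cd8b1 transcripts, which left 44.7% of T cell-like cells in neither. Iigp1 was at 54.3, 10.4, 53.4 and 53.0 CPM in CD4 T cell-like cells of control 1, control 2, stress 1 and stress 2, and at 19.2, 2.89, 9.51 and 10.7 in CD8 T cell-like cells. Igtp was also higher in the CD4 subset of all 4 libraries, with 74.0 to 151 CPM against 56.9 to 65.7. Ifi47 went the other way, with 83.2 to 192 CPM in the CD8 and 54.7 to 153 in the CD4 subset, and the CD8 value was the higher one in all 4 libraries. These differences between subsets were not tested.

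The differences between classes were tested against B cell-like cells, the most numerous class, with edgeR's quasi-likelihood test, the library as a block and Benjamini-Hochberg adjustment over 10202 genes. Of 24 pairs of class and gene (Tgtp1 had too few UMIs), 17 passed an adjusted p of 0.05, where large shares of all genes differed too. Those higher and lower than in B cell-like cells made up 24% and 24.6% in T cell-like, 28.8% and 31.7% in monocyte-like, 30.5% and 29.2% in macrophage-like and 29.6% and 33.5% in plasma cell-like cells. All 6 tested genes were higher in monocyte-like cells, from a log2 difference of 2.02 (SE 0.38) for Tgtp2 to 4.49 (SE 0.63) for Iigp1, with 2.82 (SE 0.24) for Ifi47 and 2.46 (SE 0.24) for Irgm1. That of Iigp1 rests on the stress libraries, since monocyte-like cells had 0 UMIs in both controls and 15 and 5 under stress. B cell-like cells, the reference, had 1 and 0 UMIs of Iigp1 in controls and 4 and 3 under stress. In T cell-like cells 5 of 6 were higher, among them Iigp1 by 6.11 (SE 0.37, adjusted p = 4.72e-15) and Igtp by 2.68 (SE 0.21), while Irgm1 differed by 0.12 (SE 0.21, adjusted p = 0.659). In macrophage-like cells Iigp1 (5.76, SE 0.49), Irgm2 (1.51, SE 0.41), Igtp (0.93, SE 0.34) and Irgm1 (0.75, SE 0.29) were higher.

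Plasma cell-like cells depend on the scaling, because 57.6 to 60.1% of their UMIs were immunoglobulin transcripts, against 1.09 to 1.48% in B cell-like cells. With TMM scaling, which gave factors of 0.433 to 0.478 to plasma cell-like and 1.22 to 1.31 to B cell-like sums, Igtp was higher than in B cell-like cells by 1.69 (SE 0.23) and Iigp1 by 2.57 (SE 0.55), and no member was called lower. The Iigp1 difference rests on the stress libraries, with 0 UMIs in both controls of plasma cell-like cells and 16 and 15 under stress. With total UMIs alone, Igtp differed by 0.21 (adjusted p = 0.355) and Iigp1 by 1.15 (adjusted p = 0.0577), and Irgm1 (-1.74), Ifi47 (-2.01), Tgtp2 (-2.16) and Irgm2 (-0.84) were lower. Irgm2, at 0.63 with TMM, changed sign. In T cell-like and monocyte-like cells the same 5 and 6 genes passed under both scalings, while in macrophage-like cells Irgm1 did not pass with total UMIs (0.55, adjusted p = 0.111).

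**Figure D2:**
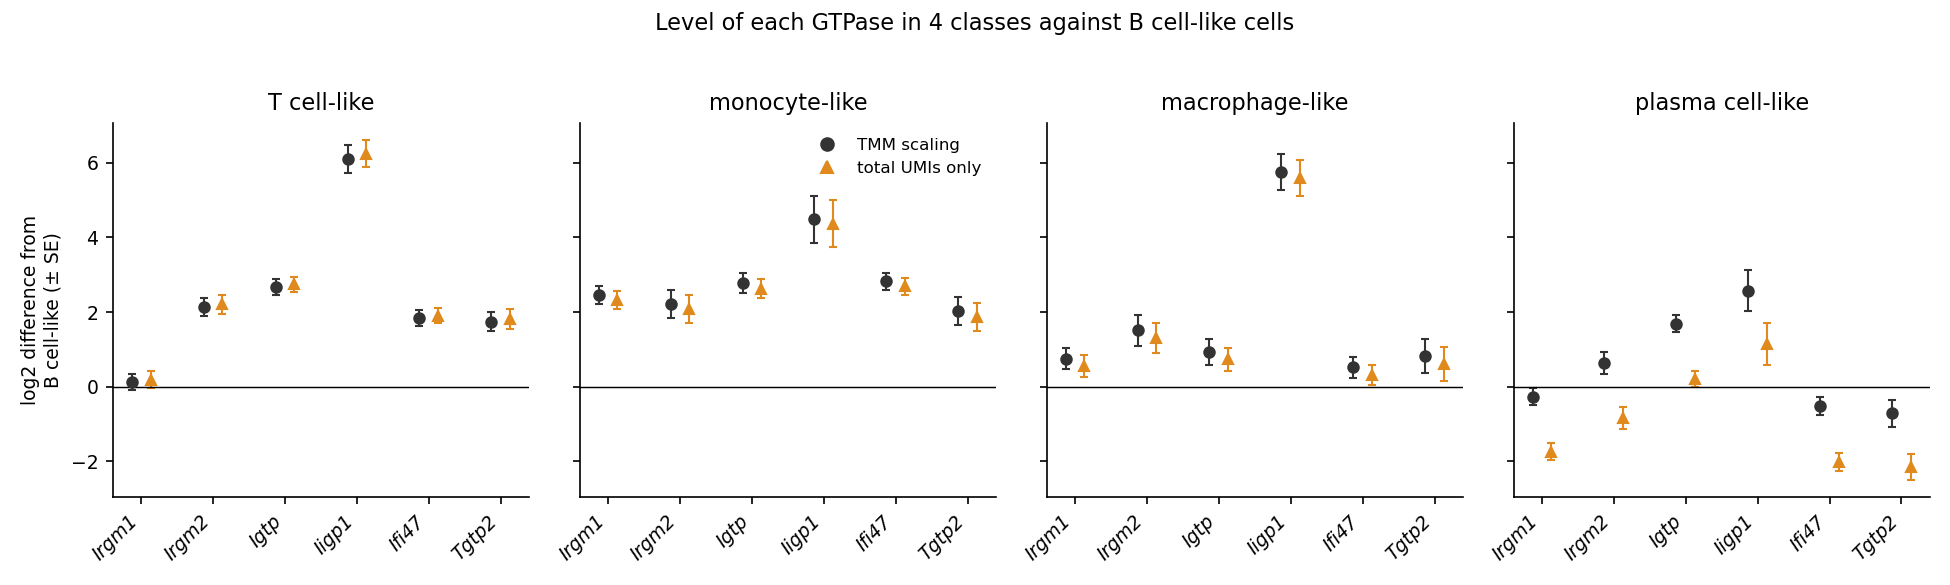
Log2 difference of 6 genes from B cell-like cells in 4 classes (points, with SE bars from edgeR, 4 libraries as a block), with TMM scaling (circles) and total UMIs only (triangles). Iigp1 stands out in T cell-like (6.11) and macrophage-like cells (5.76), and the scalings part most in plasma cell-like cells.

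Stress was compared with control first over all kept barcodes. Irgm1 was at 19.6 and 12.3 CPM in the control and 24.6 and 27.7 CPM in the stress libraries, Ifi47 at 44.5 and 34.1 against 56.7 and 59.5, and Igtp at 21.1 and 29.0 against 34.7 and 36.5. These 3 of 7 members had both stress libraries above both controls, as had 9.35% of the 13241 genes tested. The fitted log2 changes were 0.92 (SE 0.31) for Irgm1, 0.76 (SE 0.22) for Ifi47 and 0.72 (SE 0.20) for Igtp, each with an adjusted p of 0.733 in edgeR. All 7 changes were positive, as were 44.5% of those of all genes. None of the 7 members was called, and neither was any other gene (0% called), although 3 members had an unadjusted p under 0.05, as had 6.59% of all genes, and DESeq2 also called 0 members. Iigp1 overlapped between the groups, with 14.4 and 2.23 CPM in controls and 9.18 and 9.65 under stress. Of its 181 UMIs in control 1, 58 were in fibroblast-like and 62 in endothelial-like cells, and without the gated non-leukocytes its log2 change was 1.21 in place of 0.37 (adjusted p = 0.654 and 0.951). In such sums a change in the number of cells of a type and a change in RNA per cell cannot be told apart. The 5 classes with at least 30 cells in every library were then each given the same weight in all libraries. Other classes, fibroblast-like and endothelial-like cells among them, and ungated barcodes were left out. The log2 ratio of the stress to the control mean was 0.92 for Irgm1, 0.79 for Igtp, 0.70 for Ifi47 and 0.84 for Tgtp2. It was 0.54 for Irgm2, 1.35 for Iigp1 and 0.08 for Tgtp1, and the groups overlapped for Tgtp1 only. The share of all genes without overlap was not computed for these weighted values. In the 5 classes taken singly it was 22 to 30.2% with stress higher. Without control 1, 4 members passed, as did 21.6% of all genes, and without control 2, 2 did, as did 19.6% of all genes. In these and all later comparisons that leave out a library, the single library left in a group is assumed to vary like the other group.

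Plasma cells secrete antibody, and in plasma cell-like cells 2 members, Ifi47 and Irgm1, rose with stress. Ifi47 was at 3.40 and 3.55 CPM in controls 1 and 2 (12 and 8 UMIs) and at 12.8 and 13 CPM in stress 1 and 2 (163 and 211 UMIs). The libraries of each group were thus nearly equal and the groups far apart, and Ifi47 rose by a log2 change of 1.81 (SE 0.24, edgeR adjusted p = 0.00825). Irgm1 stood at 2.83 and 2.22 CPM in controls and at 9.10 and 8.61 CPM under stress, a rise of 1.68 (SE 0.29, edgeR adjusted p = 0.036). Igtp had 10.2 and 7.54 CPM in controls and 22.0 and 19.3 CPM under stress, also with no overlap, and missed the threshold (1.09, SE 0.20, edgeR adjusted p = 0.052).

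Free RNA could not be measured in these cells, and the share of cells with a UMI of any member at a fixed depth, given further on, overlapped between the groups. The rarer members were also at higher levels under stress in plasma cell-like cells, on few UMIs. Irgm2 had 1.13 and 0.887 CPM in controls and 2.12 and 2.03 under stress (0.91, SE 0.53, edgeR adjusted p = 0.593). Iigp1 had 0 UMIs in both controls and 16 and 15 in the stress libraries, at least 2.06-fold higher against a floor of 3 UMIs over both controls. Tgtp2 had 2 and 0 UMIs against 10 and 16, and Tgtp1 0 and 0 against 3 and 4. So 4 of 7 members had enough UMIs to be tested and 2 of them were called, where 0.616% of 9571 genes were called in either direction and 0.125% as higher. At an unadjusted p under 0.05 there were 3, beside 10.7% of all genes. All 4 had a positive change and no overlap between groups, as had 50.6% and 27.7% of all genes. Irgm2 passed the filter on low counts only through its stress libraries, which favoured this outcome.

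Ifi47 was called in plasma cell-like cells under each of the 16 alternatives listed, with log2 changes from 1.5 to 2.13 and adjusted p from 2.26e-08 to 0.0319. Irgm1 was not called without control 1 (adjusted p = 0.0647), without control 2 (0.0559), with DESeq2 (0.217), with a looser gate (0.0634) or with at most 5% mitochondrial UMIs (0.063). Igtp was called without control 1 (0.0282), without stress 1 (0.0295) and without stress 2 (0.00801), and not without control 2 (0.0754). Of the 14 marker lists of other classes, 3 were higher without overlap in the stress libraries of this class: NK or ILC1 markers (2.27 and 1.33 against 4 and 4 CPM, Klra4 and Klra8 at 0), plasmacytoid dendritic cell markers (166 and 194 against 213 and 219) and neutrophil markers (0.849 and 0.887 against 0.942 and 2.64, Retnlg and Lcn2 at 0). Their part in the result was not tested. The summed T cell markers (37.4 and 72.7 against 60.4 and 37.8 CPM) and monocyte markers (39.1 and 22.6 against 36.6 and 35.7 CPM) overlapped between the groups. The ILC2, cDC2, fibroblast and epithelial lists were lower without overlap under stress.

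**Figure D3:**
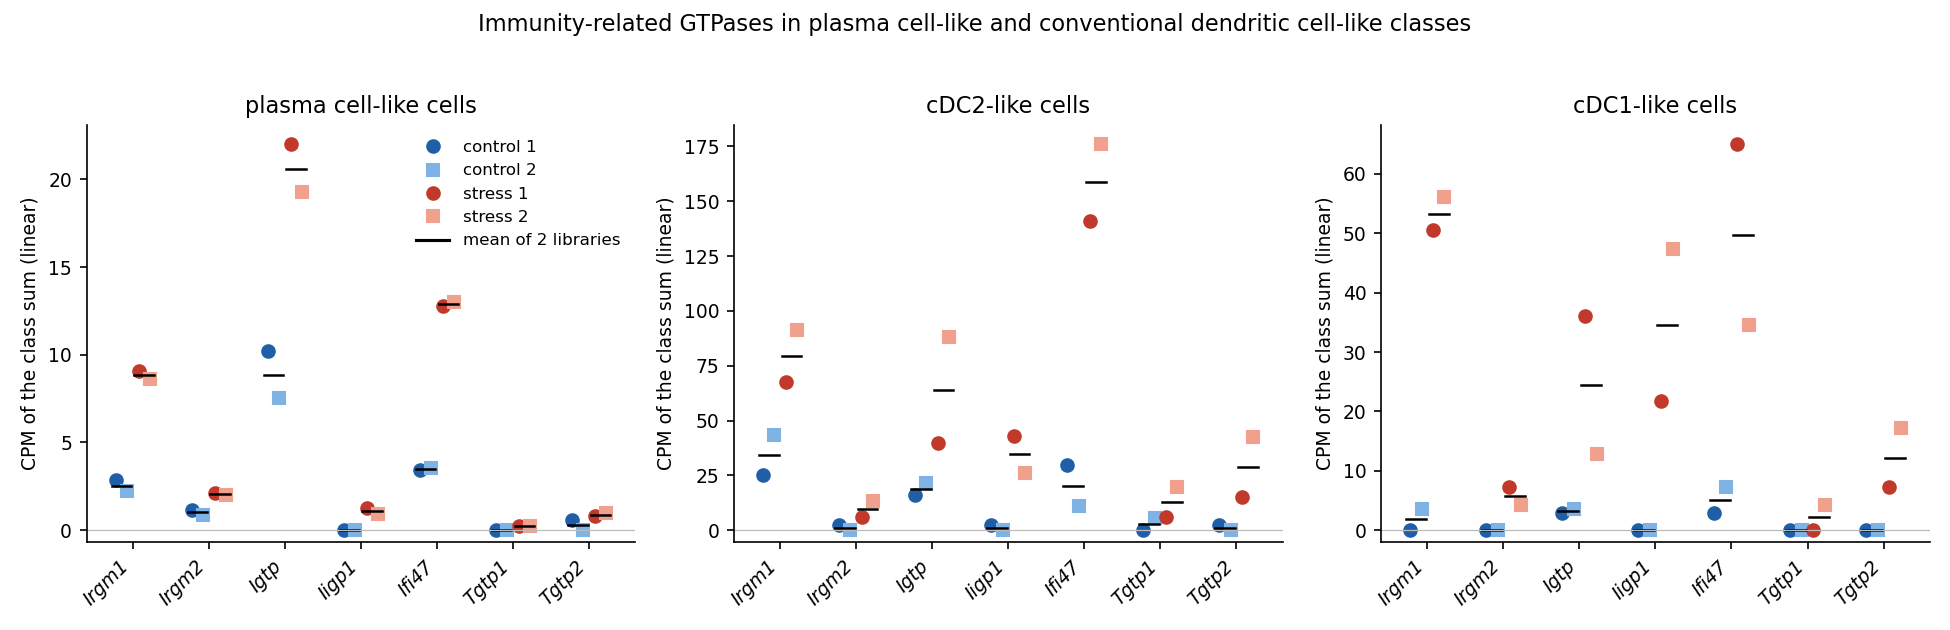
Level of the 7 genes (CPM of the class sum, linear axis) in plasma cell-like, cDC2-like and cDC1-like cells, with 1 point per library and a bar at the mean of each group of 2. In plasma cell-like cells Ifi47 sits at 3.40 and 3.55 CPM in controls and at 12.8 and 13 CPM under stress, and in cDC2-like cells at 29.6 and 10.9 against 141 and 176 CPM.

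Conventional dendritic cells, which take up antigen and present it to T cells, were few, with 25 to 53 cDC2-like and 17 to 33 cDC1-like cells per library. They fell short of the 30 cells set for a fit and were fitted at a minimum of 15, a choice made after the cell counts were seen. In cDC2-like cells Ifi47 was at 29.6 and 10.9 CPM in controls (13 and 2 UMIs) and at 141 and 176 CPM under stress (46 and 54 UMIs), and rose by 2.65 (SE 0.40, edgeR adjusted p = 0.000757). Both stress libraries were far above both controls. Igtp had 15.9 and 21.7 CPM in controls and 39.8 and 88.2 under stress (1.74, SE 0.51, edgeR adjusted p = 0.0912), and Irgm1 25.1 and 43.4 against 67.4 and 91.5 (1.27, SE 0.41, edgeR adjusted p = 0.137).

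Only these 3 of the 7 members could be tested in cDC2-like cells, and 1 was called, where 1.89% of 3921 genes were called and 0.995% as higher. All 3 were positive (50.1% of genes), had no overlap (24.1%) and an unadjusted p under 0.05 (11.7%). None of the 3 was above the cutoff of the filter on low counts in both controls, so each passed it through the stress libraries. Their direction and lack of overlap were thus favoured in advance. The effectors below the filter had few UMIs: Iigp1 had 1 and 0 UMIs in controls and 14 and 8 under stress, a ratio of pooled CPM of 21.7 (95% interval 3.51 to 895, counting error only). Tgtp2 had 1 and 0 UMIs against 5 and 13. The call of Ifi47 was lost with the replicate number as a block (adjusted p = 0.156), and without control 1 its change was 3.79. Of 14 marker lists of other classes 4 were higher without overlap under stress: T cell markers (2.28 and 16.3 against 18.4 and 19.6 CPM, with Cd3e, Cd3g and Cd247 at 0), plasma cell markers (144 and 103 against 313 and 281, with Derl3, Tnfrsf17 and Fkbp11 at 0), NK or ILC1 markers (157 and 168 against 319 and 448, with Ncr1, Klrb1c, Eomes, Klra4 and Klra8 at 0) and plasmacytoid dendritic cell markers (125 and 103 against 129 and 235, with Klk1 and Cox6a2 at 0). The ILC2 and epithelial lists were lower without overlap. So were the cDC2 markers of the class itself (3836 and 2942 against 2461 and 2739 CPM). The part of these lists in the result was not tested, and 39.1% of cDC2-like cells lay at the edge of the gate.

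In cDC1-like cells, the type known for presenting antigen to CD8 T cells, the controls held almost no member transcripts. Irgm1 had 0 and 1 UMI in controls and 7 and 13 under stress, a ratio of pooled CPM of 33.8 (95% interval 5.41 to 1403, counting error only). Ifi47 had 1 and 2 UMIs against 9 and 8, a ratio of 9.59 (2.77 to 51.1), and Igtp 1 and 1 against 5 and 3. Iigp1 had 0 UMIs in both controls and 3 and 11 under stress, at least 7.9-fold higher against the floor of 3 UMIs. Irgm1, the one member tested, had an edgeR adjusted p of 0.244 (unadjusted 0.0021) and was not called, where 0.276% of 3255 genes were. Shares of 49.9%, 21.3% and 6.82% of these genes had a positive change, no overlap and an unadjusted p under 0.05, as Irgm1 had. Irgm1 passed the filter on low counts only through its stress libraries, which favoured its direction and lack of overlap in advance. Irgm1 was called without a filter on low counts (adjusted p = 0.000722) and with a filter of 10 CPM (0.0293), while DESeq2 called 0 members. B cell markers (11.4 and 21.8 against 36.1 and 69.0 CPM), plasma cell markers (182 and 153 against 303 and 336) and monocyte markers (150 and 204 against 209 and 328) were higher without overlap under stress in this class. So were the cDC1 markers of the class itself (1880 and 2225 against 3525 and 2673 CPM). The part of these lists was not tested. Mast cell markers were at 3364 CPM in control 2, above the cDC1 markers there (2225 CPM). In control 1, stress 1 and stress 2 the mast cell markers were at 51.1, 93.9 and 86.2 CPM.

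B cell-like cells were the largest class, with 870 to 3683 cells per library. Irgm1 was at 17.5 and 11.7 CPM in controls and 21.2 and 33.1 CPM under stress (log2 change 0.90, SE 0.27, edgeR adjusted p = 0.169). Igtp had 11.8 and 6.53 against 12.9 and 22.5 CPM (1.02, SE 0.36, edgeR adjusted p = 0.25). Ifi47 had 38.5 and 13.3 against 39.4 and 54.2 CPM, so control 1 lay just below stress 1 (0.96, SE 0.57, edgeR adjusted p = 0.579). Of the 5 members tested all had a positive change, as had 48.4% of 10529 genes, and 3 had no overlap, as had 29.5%. Yet edgeR and DESeq2 each called 0 of them, with 3 at an unadjusted p under 0.05 (13.8% of genes), where edgeR called 0.608% of all genes. These calls turned on single libraries: without control 1, 4 members and 11.7% of all genes were called and Ifi47 changed by 1.71 (edgeR adjusted p = 3.89e-15), and without control 2 Ifi47 changed by 0.20 (adjusted p = 0.805). Without stress 1, 3 members and 2.1% of all genes were called. Of 14 marker lists of other classes 4 were higher without overlap under stress in B cell-like cells, among them plasma cell markers (710 and 556 against 1435 and 1312 CPM), and their part was not tested. The epithelial list and the B cell markers of the class itself (6507 and 6530 against 5860 and 6180 CPM) were lower without overlap.

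T cell-like cells supplied the most transcripts of 6 members, and 0 members were called in them. Irgm1 was at 14.0 and 14.5 CPM in controls and 27.0 and 36.9 under stress (log2 change 0.99, SE 0.24, edgeR adjusted p = 0.612). Igtp had 62.8 and 67.3 against 105 and 102 CPM (0.52, SE 0.18, edgeR adjusted p = 0.651), and Iigp1 22.0 and 6.68 against 31.4 and 32.0 (1.28, SE 0.46, edgeR adjusted p = 0.683). The groups of all 3 were apart, while Tgtp1, with 9.35 and 5.41 against 4.16 and 7.94 CPM, overlapped (-0.32, SE 0.44). Of 7 members tested 6 had a positive change and 5 no overlap with stress higher, where the shares of 10115 genes were 49.3% and 30.2%. EdgeR and DESeq2 called 0 members, with 3 at an unadjusted p under 0.05 in edgeR (7.02% of genes), and edgeR called 0% of all genes. Without control 1, 3 members and 13.4% of all genes were called. Marker lists of 4 other classes were higher without overlap under stress, among them monocyte markers (178 and 73.7 against 205 and 199 CPM), and their part was not tested.

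In the CD4 subset all 6 tested members had positive changes, from 0.40 (SE 0.41) for Irgm2 to 1.82 (SE 0.81) for Tgtp2, as had 48.8% of 7858 genes, and 4 had no overlap (29.3%). Irgm1 was at 12.8 and 11.8 CPM in controls and 25 and 44.9 under stress there. In the CD8 subset 6 of 7 were positive (49.7% of 8058 genes), and Irgm1 alone had no overlap (25.1%), with 12.0 and 15.2 against 32.9 and 31.6 CPM. Igtp in CD8 T cell-like cells was at 64.8 and 64.4 CPM in controls and at 65.7 and 56.9 under stress (-0.21, SE 0.25). EdgeR called 0 members in either subset (3 and 1 at an unadjusted p under 0.05, beside 6.57% and 7.59% of all genes, of which 0.0127% and 0.0248% were called), and DESeq2 called 0. Both subsets lie within the T cell-like class, and without control 1 edgeR called 5 members in the CD4 and 1 in the CD8 subset, beside 12.3% and 9.76% of all genes. Of the marker lists of other cell types, those of macrophages (44.8 and 20.7 against 60.3 and 48.1 CPM) and mast cells were higher without overlap under stress in the CD4 subset. So were the T cell markers (5790 and 5466 against 6204 and 6364 CPM). Those of NK or ILC1, cDC2 and endothelial cells were lower without overlap there. In the CD8 subset those of B cells, plasma cells (149 and 105 against 1237 and 428 CPM), cDC1, cDC2 and plasmacytoid dendritic cells were higher without overlap. The part of these lists was not tested.

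In monocyte-like cells the members stood high in control 1 and in both stress libraries, and the groups overlapped. Ifi47 was at 304 and 94.0 CPM in controls and 295 and 248 under stress (log2 change 0.46, SE 0.42, edgeR adjusted p = 0.837), Irgm1 at 149 and 47.0 against 134 and 114 (0.37, SE 0.36, edgeR adjusted p = 0.841), and Igtp at 99.4 and 47.0 against 114 and 81.8 (0.43, SE 0.35, edgeR adjusted p = 0.809). Control 1 was above both stress libraries for Ifi47 and Irgm1, and control 2 below them. Of the 3 tested members, 3 were positive (48.8% of 5505 genes), and 0 had both stress libraries above both controls (22% of genes). EdgeR and DESeq2 called 0, with 0 at an unadjusted p under 0.05 in edgeR (7.99% of genes), and 0.0908% of all genes were called. Without control 1, with 38 cells in control 2, edgeR called 2 members and 2.25% of all genes, and without control 2 all 3 changes were negative, from -0.32 for Irgm1 to -0.09 for Igtp. Iigp1 had 0 UMIs in both controls and 15 and 5 under stress, at least 1.41-fold higher against the floor of 3 UMIs. Of 14 other marker lists 8 were higher without overlap under stress in this class. So were the monocyte markers of the class itself (5665 and 4846 against 6181 and 5769 CPM). The part of these lists was not tested.

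Macrophages engulf and digest microbes, and 0 members were called in macrophage-like cells. Iigp1 was at 7.33 and 4.81 CPM in controls and 24.5 and 23.7 under stress (log2 change 1.69, SE 0.48, edgeR adjusted p = 0.143), and Ifi47 at 32.4 and 9.62 against 63.9 and 64.9 (1.14, SE 0.35, edgeR adjusted p = 0.198). Both were without overlap, whereas Irgm1 (14.7 and 48.1 against 39.4 and 40.2 CPM) and Igtp (8.37 and 28.9 against 27.2 and 32.9 CPM) had control 2 above at least 1 stress library. All 4 tested members were positive (49.9% of 6684 genes) and 2 had no overlap (25.4%). These 2, Iigp1 and Ifi47, did not pass the filter on low counts with the controls alone, which favoured this outcome. EdgeR and DESeq2 called 0 of the 4 members, with 3 at an unadjusted p under 0.05 (11.4% of genes), where edgeR called 1.32% of all genes. Without control 2, which held 35 macrophage-like cells, 2 members and 6.48% of all genes were called, and without control 1 Irgm1 changed by -0.30. The summed macrophage markers of this class were 18804 and 12399 CPM in controls and 10961 and 11494 under stress, and 4 of 14 other lists were higher under stress without overlap. The ILC2 and cDC2 lists were lower without overlap. The part of these lists in the values was not tested.

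In NK or ILC1-like cells, with 24 to 62 cells per library and a fit at the lower minimum of cells, Ifi47 was the one member tested. It was at 115 and 86.8 CPM in controls and 102 and 139 under stress (log2 change 0.35, SE 0.39, edgeR adjusted p = 0.971), and the groups overlapped. EdgeR and DESeq2 called 0 members, 0 had an unadjusted p under 0.05 (5.95% of 2133 genes), and edgeR called 0.188%. Its change was positive, as for 51.6% of genes, and 14.8% had no overlap. ILC2-like cells, of which a library held 12 to 40, had 0 UMIs of Irgm2 and Iigp1 in all 4 libraries, 8, 5, 1 and 8 UMIs of Ifi47, and no fit.

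Over the 8 separate classes fitted, 28 of 56 pairs of class and member could be tested. Of these 27 had a positive change, 18 had both stress libraries above both controls, and 3 were called: Irgm1 and Ifi47 in plasma cell-like and Ifi47 in cDC2-like cells. Over all genes tested, the positive share was 48.4 to 51.6% and the share without overlap 14.8 to 30.2% by class. The classes share their libraries, so these pairs are not independent. The filter on low counts kept a gene above its cutoff in any 2 libraries, and some pairs passed it only with the stress libraries. Among them were all 3 in cDC2-like cells, Irgm1 in cDC1-like, Iigp1 in macrophage-like and Irgm2 in plasma cell-like cells. For such pairs the filter favoured a positive change and no overlap, so these 2 outcomes are no separate support. Over the 5 classes with at least 30 cells in every library the counts were 23 of 35 tested, 22 positive, 14 without overlap and 2 called. Whether the change with stress differed from that of B cell-like cells was tested for 24 pairs by an interaction term, and edgeR called 0 (smallest adjusted p = 0.454 and 2 pairs at an unadjusted p under 0.05). Of all genes, 0.0588% were called higher and 0.0784% lower in that comparison for T cell-like, 0.049% and 0.108% for plasma cell-like, 0.0098% and 0% for monocyte-like and 0.225% and 0.098% for macrophage-like cells. The 2 pairs were Ifi47 in T cell-like cells, with a difference of -0.61 (SE 0.26, edgeR adjusted p = 0.454), and in plasma cell-like cells, with 1.02 (SE 0.46, edgeR adjusted p = 0.556). A rise in one class is not shown to differ from the change in another.

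**Figure D4:**
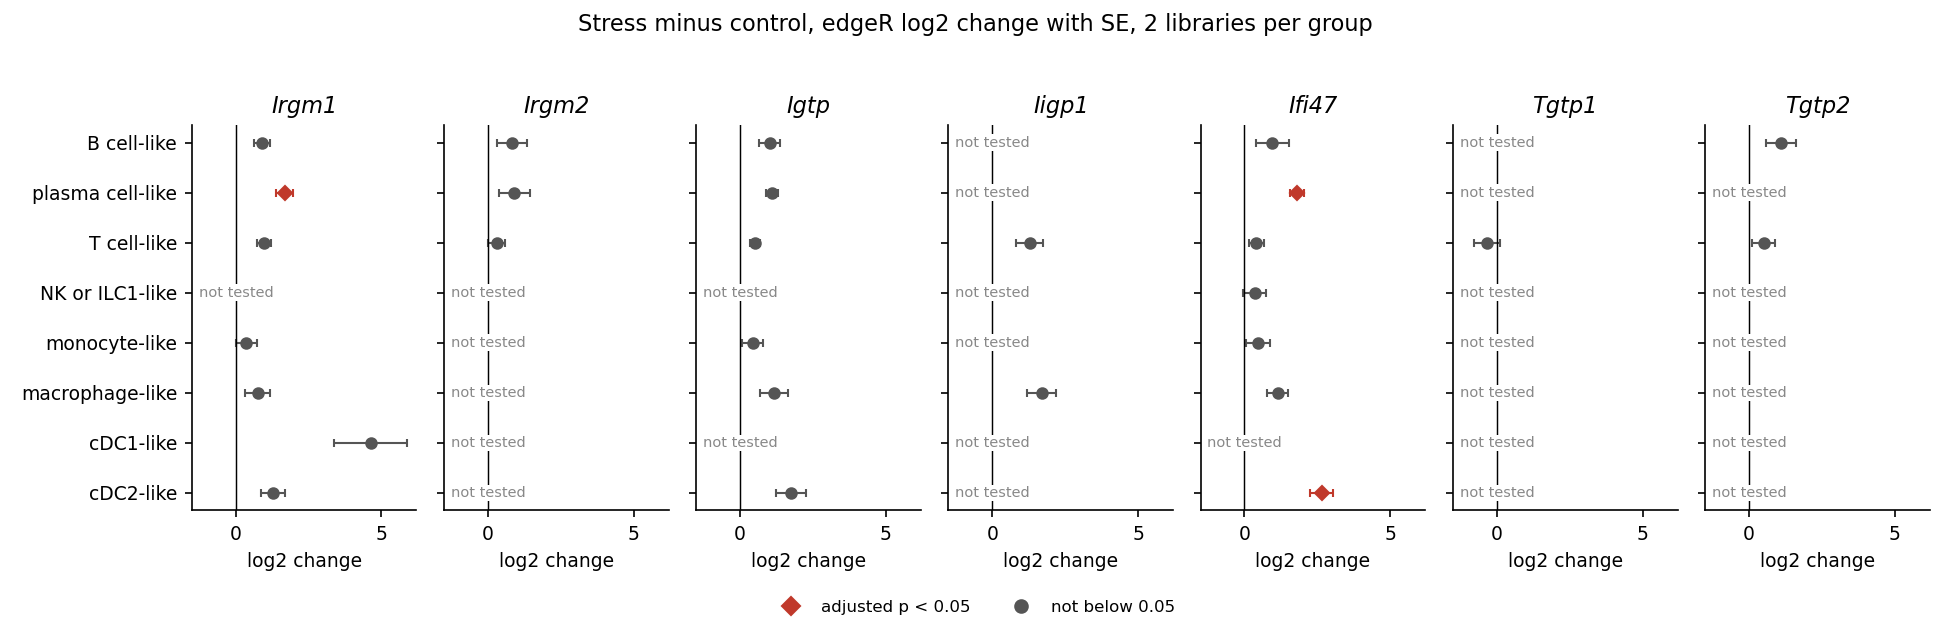
Log2 change, stress minus control, of each gene in 8 classes (points, with SE bars from edgeR, 2 libraries per group), where diamonds mark an adjusted p under 0.05. Of the 28 changes shown 27 lie to the right of 0, and 3 are called: Irgm1 and Ifi47 in plasma cell-like and Ifi47 in cDC2-like cells. Some pairs passed the filter on low counts only with their stress libraries.

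The share of cells with at least 1 UMI of any of the 7 genes was compared after each cell had been thinned to 1000 UMIs, which left out 438 control and 982 stress barcodes. In T cell-like cells it was 22.4 and 17.2% in controls and 24.9 and 25.5% under stress, and in B cell-like cells 6.35 and 3.03% against 6.40 and 11.9%. Unthinned, T cell-like shares were 44.4, 40.6, 44.9 and 64.1% and B cell-like shares 13.8, 7.66, 13.9 and 30.8%. In cDC1-like cells 0 of 33 and 0 of 29 control cells had one, with exact Clopper-Pearson upper limits of 10.6 and 11.9%, against 15.8% (3.38 to 39.6) and 11.8% (1.46 to 36.4) under stress. Unthinned, cDC1-like shares were 6.06 and 10.3% in controls and 52.6 and 41.2% under stress. In monocyte-like cells the shares of 34.4 and 13.2% in controls and 35.0 and 25.2% under stress overlapped. Plasma cell-like cells had shares of 3.38 and 1.57% against 3.49 and 3.37%, at median depths of 12244 to 22453 UMIs before thinning, and unthinned 21 and 17.8% against 26.7 and 38.7%. No class is known to lack these genes, so free RNA has no reference here. With 2 libraries against 2, the two-sided exact permutation test cannot go below p = 0.333, the value it gave for T, B, macrophage-like, cDC1-like and NK or ILC1-like cells, while plasma cell-like, monocyte-like and cDC2-like cells had p = 0.667. Intervals cover counting error only.

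**Figure D5:**
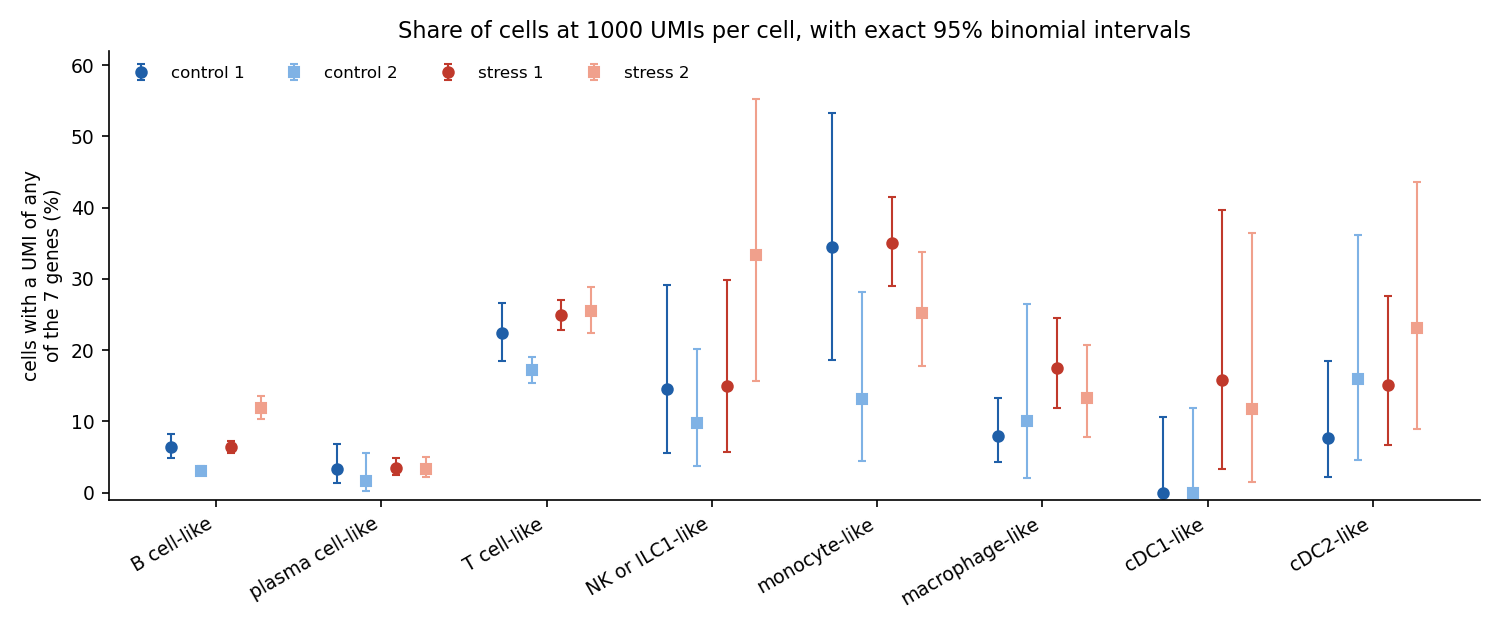
Share of cells (%) with a UMI of any of the 7 genes at 1000 UMIs per cell, by class and library, with exact 95% Clopper-Pearson intervals. T cell-like cells lie between 17.2 and 25.5% and plasma cell-like cells between 1.57 and 3.49%.

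The genes upstream of the family were described next, from lists chosen for their roles. Of the interferon ligands, Ifng alone passed the filters. Its highest levels were in NK or ILC1-like cells, with 1001 and 295 CPM in controls and 519 and 1471 under stress, and in T cell-like cells, with 176 and 37.4 against 247 and 260 CPM (log2 change 1.21, SE 0.63, edgeR adjusted p = 0.739). Ifng changed by 2.33 in B cell-like (edgeR adjusted p = 0.169) and by 2.61 in plasma cell-like cells (edgeR adjusted p = 0.0904). Both had no overlap with stress higher, as had 29.5% and 27.7% of all genes. The source of these transcripts was not tested. Of the 4 receptor chains, 0 had a positive change in B cell-like, T cell-like, plasma cell-like and monocyte-like cells. Of all genes, 48.4%, 49.3%, 50.6% and 48.8% had one in these classes. In macrophage-like cells 4 chains had one, beside 49.9% of all genes. The classes share their libraries, so these counts are not independent. Ifngr2, a signalling chain of the interferon gamma receptor, fell in plasma cell-like cells from 9.91 and 8.87 to 3.69 and 3.88 CPM (-1.40, SE 0.25, edgeR adjusted p = 0.0402), and it was the 1 receptor chain called in any class. Among the signalling genes, the transcription factor Irf1 rose in cDC2-like cells (log2 change 1.24, SE 0.24, edgeR adjusted p = 0.00972). There 0.995% of all genes were called as higher.

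Among other genes that interferon gamma is known to induce, the guanylate-binding proteins are the nearest functional partners. In plasma cell-like cells 1 of 7 tested rose (Gbp2, 14.2 and 10.2 to 27.0 and 32.7 CPM; 1.18, SE 0.21, edgeR adjusted p = 0.0468) and their median change was 1.00, beside a median of 1.39 for the 4 tested GTPases and 0.00 for all genes. In macrophage-like cells 2 of 8 rose, Gbp2 (57.6 and 33.7 to 235 and 324 CPM; 2.36, SE 0.29) and Gbp5 (2.48, SE 0.43), while 0 of 4 GTPases did. In cDC2-like cells 0 of 5 passed, with a median of 1.54, against 1 of 3 GTPases with a median of 1.74. In T cell-like cells 0 of 9 passed (median 0.80), and in B cell-like cells 0 of 8 (median 0.82), where the GTPases had medians of 0.51 and 0.96. Over all genes these medians were -0.01 in both classes. Of all genes, edgeR called 0.616% in plasma cell-like, 1.32% in macrophage-like, 1.89% in cDC2-like, 0% in T cell-like and 0.608% in B cell-like cells.

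Of 12 further interferon gamma targets, with roles that include antigen presentation and the attraction of T cells, 5 of 9 tested rose in cDC2-like cells: Psmb9 (1.15), Tap1 (1.04), Psmb8 (0.91), Cxcl10 (1.27) and Ciita (1.47). Of all 3921 genes tested there, 1.89% were called and 0.995% as higher, in a fit at the lower minimum of cells. With the replicate number as a block, 0% of all genes were called in this class. Psmb8, a subunit of the immunoproteasome, rose in macrophage-like cells (1.01, SE 0.20), where 1.32% of all genes were called. The chemokine Cxcl9 rose in cDC1-like cells (2.83, SE 0.35), where 0.276% were. In B cell-like cells Cxcl9 had 0 UMIs in both controls and 53 and 65 under stress, at least 23.9-fold higher against the floor of 3 UMIs (edgeR adjusted p = 0.00302). EdgeR called 0.608% of all genes there. Cxcl9 passed the filter on low counts only through the stress libraries, which favoured its direction and lack of overlap in advance. In T cell-like cells its change was negative and not called (-1.06, SE 0.82, edgeR adjusted p = 0.787). In plasma cell-like cells, where Ifi47 and Irgm1 rose, 0 of 11 of these targets did. Of the other family genes with a row (9 of 10 listed), 0 to 4 could be tested in each class and 0 passed in any, among them 9930111J21Rik2, at 88.5 CPM on average in B cell-like cells. Of the 10 conjugation genes, which the family needs to find its target vacuole, Map1lc3a alone passed, lower in B cell-like cells (-0.85, SE 0.18, edgeR adjusted p = 0.0481).

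The genes whose level followed that of the family most closely were taken as a description over 20 points, the 5 classes with at least 30 cells in every library times 4 libraries, which share libraries, depth and gates. Among 7126 genes with a mean of at least 10 CPM, the highest Pearson correlations with the summed members (log2 scale) included those of Fbxo28 (0.95), Irf1 and Pitpnm1 (both 0.93), and Gbp9, Hif1a, 1600014C10Rik, Psme2, Prelid1 and Pgk1 (each 0.92). Irf1 is a transcription factor that interferon induces, and Gbp9 is a guanylate-binding protein. Of the other pathway genes, named after their values were seen, Gbp5 came at rank 24, Nlrc5 at 37 and Ifng at 4781. Within the family, Ifi47 followed the sum of the other 6 most closely (0.93), then Tgtp2 (0.90), Irgm2 and Igtp (both 0.85) and Irgm1 (0.81). Iigp1 (0.54) and Tgtp1 (0.50) followed the sum of the others least.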

How the data were processed

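Droplet single-cell RNA-seq of sorted colon leukocytes was analysed in 2 control and 2 stress libraries. The authors deposited filtered matrices of UMI counts per gene and barcode, made with Cell Ranger (listed as 5 and 5.0 in the submitters' processing notes, and as software 3.1.0 per the file headers) on mm10. The values are raw counts. Barcodes under 500 UMIs or over 10% mitochondrial UMIs were left out. Doublets were not removed in the results given. Scrublet in scanpy 1.11.5 marked 0.012 to 1.58% of barcodes per library with its own threshold, and an alternative left out the highest scores at 0.8% per 1000 barcodes, 53 to 556 per library.

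Cells were classed by markers as described in the report, and counts were summed per library and class. Kept UMIs were 12552824, 20162123, 33891484 and 36370030 in control 1, control 2, stress 1 and stress 2. Sums were tested with edgeR 4.0.16 (TMM, filterByExpr, robust quasi-likelihood fit, R 4.3.3), with p-values adjusted by Benjamini-Hochberg over all genes tested and a threshold of 0.05. DESeq2 1.42.0 was an alternative. Class differences used the library as a block. The scripts were tested on simulated data. Shares used cells thinned to 1000 UMIs and an exact two-sided permutation test. Likeness used log2(CPM + 1). Intervals are exact at 95% and cover counting error only, and at-least folds use a floor of 3 counts over the control group.

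The 7 genes, the marker and pathway lists and the rules were chosen with earlier results of these data known. Named were all 7 genes, the pathway genes past the threshold (at most 5 per list and class), else the most abundant, and the 10 genes most like the family. Not every gene that these rules name is reported here. The same-numbered libraries did not deviate together (correlations from -0.29 to -0.01), so replicate numbers were not treated as pairs. Of the gene identifiers, 31011 of 31053 were in GENCODE vM21.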

Additional observations from a re-analysis of the deposited data

Results flagged for a closer look

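Classes too small for a fit held some levels above the highest control value of the same gene in any fitted class, the CD4 and CD8 subsets included. Each is given as CPM with an exact 95% Poisson interval, which covers counting error only. None was tested between groups.

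In the 40 neutrophil-like cells of stress 2, Irgm1 was at 290 CPM (29 UMIs, 194 to 417), above 149 in the highest fitted control. Irgm2 was at 70.1 CPM (28.2 to 144) against 16.8, Igtp at 270 CPM (178 to 393) against 99.4, and Ifi47 at 601 CPM (458 to 773) against 304. The other libraries held 1, 8 and 26 such cells.

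Iigp1 was above its highest fitted control value, 54.3 CPM, in some non-leukocytes. It was at 314 CPM (171 to 526) in the 8 fibroblast-like cells of stress 1. In endothelial-like cells it was at 1546 CPM (1185 to 1981) in the 8 cells of control 1, where Irgm1 was at 374 CPM (209 to 617), and at 1008 CPM (275 to 2580) in stress 1, on 4 UMIs in 1 of 2 cells.

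Among the 6 epithelial-like cells of stress 2, the UMIs of each flagged gene were all or mostly in 1 cell. Iigp1 was at 801 CPM with all 67 UMIs in 1 cell, Igtp at 191 CPM with all 16 UMIs in 1 cell, and Irgm1 at 358 CPM with 29 of 30 UMIs in 1 cell. Irgm2 was at 59.7 CPM with 4 of 5 UMIs in 1 cell. Tgtp1 was at 95.6 CPM with all 8 UMIs in 1 cell, against 9.61 in the highest fitted control.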

How the results depend on the processing

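Of 529 values for single members under alternatives other than a left-out library, 501 kept direction and side of the threshold, and for class differences 97 of 108 did. With a library left out, 137 of 188 and 90 of 96 did. The number of members called moved with the library left out over all kept barcodes and in B cell-like, T cell-like, CD4 and CD8 cells. It also moved in plasma cell-like, monocyte-like, macrophage-like and cDC2-like cells, and so did the number of differences between class effects called. The share of all genes called moved too in these stress comparisons, and each such fit kept a single library in a group. Log2 changes that turned direction ran over all kept barcodes from -0.41 to 2.32 for Iigp1 and -0.20 to 0.36 for Tgtp1. In T cell-like cells they ran from -0.06 to 0.55 (Irgm2), -0.85 to 0.02 (Tgtp1) and -0.07 to 0.93 (Tgtp2), and for Iigp1 in CD4 cells from -0.17 to 2.18. In CD8 cells they ran from -0.33 to 1.18 (Tgtp2), -0.59 to 0.43 (Tgtp1), -0.23 to 0.79 (Ifi47), -0.56 to 0.46 (Irgm2) and -0.93 to 1.59 (Iigp1). In monocyte-like cells they ran from -0.32 to 1.40 (Irgm1), -0.22 to 1.53 (Ifi47) and -0.09 to 1.06 (Igtp), and in macrophage-like cells from -0.30 to 1.32 (Irgm1). The Ifi47 effect in monocyte-like minus that in B cell-like cells ran from -0.59 to 0.12. Shares ran from -4.26 to 17.0 percentage points in monocyte-like and -2.89 to 3.9 in CD8 cells.

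With no filter on low counts, 2 members were called in B cell-like (3.17% of all genes), 2 in T cell-like (1.36%), 1 in macrophage-like (1.82%), 3 in cDC1-like (0.375%) and 3 in cDC2-like cells (1.08%). In plasma cell-like cells 3 were called in that setting (2%). With at least 10 CPM the counts were 1 in cDC1-like (0.146%) and 2 in cDC2-like cells (1.17%). A looser gate gave 1 in plasma cell-like (0.428%) and 1 in cDC1-like cells (0.669%). In plasma cell-like cells 5% mitochondrial UMIs gave 1 (0.38%), DESeq2 1 (0.397%) and up to 25% mitochondrial UMIs 3 (0.68%). Tgtp1 over all kept barcodes was -0.49 with 5% mitochondrial UMIs and -0.08 without non-leukocytes. In CD8 cells DESeq2 gave -0.02 for Tgtp1 and -0.08 for Irgm2, and the stricter gate -0.00 for Tgtp1. The stricter gate left 8 of 17 class differences, since monocyte-like and macrophage-like cells became too few. Irgm2 in plasma cell-like minus B cell-like cells was -0.84 with total UMIs. At 2000 UMIs the share in NK or ILC1-like cells was -3.95 points, against 11.9. Of the 10 genes most like the family, 5 were shared with Spearman's rho and 6 with a minimum of 50 CPM. Causes were not tested.

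With the replicate number as a block, 0 members were called in cDC2-like and 3 in plasma cell-like cells (0% and 2.01% of all genes). The numbers give no pairing. With crossed numbers as a block, added after seeing the data, the counts were 3 in B cell-like (4.05% of all genes), 3 in plasma cell-like (1.72%), 1 in macrophage-like (3.76%) and 2 in cDC2-like cells (4.51%). In CD8 cells Tgtp1 was then -0.18 and Irgm2 -0.15. The stricter gate was not run for NK or ILC1-like, monocyte-like, macrophage-like, cDC1-like and cDC2-like cells, nor 5% mitochondrial UMIs for macrophage-like and cDC1-like cells, with too few cells.

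Depth limits the rare members most: Tgtp1 was tested in no class beside T cell-like cells and their CD8 subset, and with 2 libraries a group each call rests on the spread of 4 libraries.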
